A study of Mus musculus with 4 samples.

Results

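The 9 genes described here make heme or the globin chains that carry it: the synthesis enzymes Alas1, Alas2, Alad, Urod, Cpox, Ppox and Fech, and the globins Hba-a1 and Hbb-b1. They were taken by symbol from the authors' gene table, which names 20909 genes with 1 probe each, and all 9 were found. Livers of Wrn mutant mice were compared with livers of wild-type mice, all C57Bl/6 males aged 3 months, with no treatment and free access to food, under inverted lighting (12 h light, 12 h dark). Wrn is a helicase of the RecQ family that unwinds DNA during repair, and Werner syndrome, a human disorder of early ageing, follows from its loss. The mutants have an altered Wrn protein, with the kind of change not described in the labels. Each of 4 two-colour Agilent arrays held RNA of 1 mutant and 1 wild-type liver, with the mutant in Cy3 in pairs 1 and 2 and in Cy5 in pairs 3 and 4.

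Heme is a ring of porphyrin with iron at its centre. Its synthesis starts and ends inside the mitochondrion and passes through the cytosol in between. The first step, condensation of glycine and succinyl-CoA to 5-aminolevulinate, limits the rate and is run by a pair of synthases from separate genes. Alas1 is expressed in all tissues and is kept low in liver by heme itself, where most new heme goes into cytochrome P450 enzymes. Alas2 is the red cell form and supplies heme for hemoglobin. Liver RNA contains globin and Alas2 transcripts because young red cells in the blood it holds still carry messenger RNA.

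Values are log2 ratios of mutant over wild type, 1 per probe and array, as deposited. This direction is likely rather than stated: the titles and the name of the authors' table put the mutant first, and if wild type were the numerator every sign below would turn. The probe for Wrn gave log2 ratios of 0.91 to 1.77, above 0 in each pair, and whether it lies in the altered part of the gene is unknown, so it does not check the labels. Array medians lay between 0.0037 and 0.018. With 4 arrays, precision is low throughout. A, the average log2 intensity of both channels, shows how bright a probe was. It was above the median of named probes, 6.4, for 8 of the 9 members and below it for Alad.

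Promoter windows of 5 members are printed first, because they show the DNA in front of the liver and red cell synthases, of Cpox, and of both globins. The sequences are from RefSeq on GRCm38.p6, from 250 bases before to 50 after a transcript start. Capitals mark GATA words, which begin with A or T and end with A or G around the letters GATA, and the word CACCC. Both strands were searched, so a match on the other strand appears in the printed line as its reverse complement. GATA words are bound by GATA1 and CACCC by KLF1, the master factors of red cell precursors. The beta globin window is that of Hbb-bt, the name that RefSeq now gives to the accession printed on the Hbb-b1 probe.
Alas1, chr9:106247905-106248204, minus strand: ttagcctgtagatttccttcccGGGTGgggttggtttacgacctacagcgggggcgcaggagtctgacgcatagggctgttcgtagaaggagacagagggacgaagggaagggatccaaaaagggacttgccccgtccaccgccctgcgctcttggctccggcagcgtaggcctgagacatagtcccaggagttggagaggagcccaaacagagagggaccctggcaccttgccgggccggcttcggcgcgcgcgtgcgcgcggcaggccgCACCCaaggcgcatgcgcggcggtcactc
Alas2, chrX:150547167-150547466, plus strand: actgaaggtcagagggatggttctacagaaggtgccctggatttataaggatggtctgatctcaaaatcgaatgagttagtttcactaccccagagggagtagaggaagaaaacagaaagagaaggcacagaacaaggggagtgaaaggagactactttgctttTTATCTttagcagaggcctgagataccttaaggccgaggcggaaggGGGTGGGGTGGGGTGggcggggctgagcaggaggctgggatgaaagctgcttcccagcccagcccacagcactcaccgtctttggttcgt
Cpox, chr16:58669958-58670257, plus strand: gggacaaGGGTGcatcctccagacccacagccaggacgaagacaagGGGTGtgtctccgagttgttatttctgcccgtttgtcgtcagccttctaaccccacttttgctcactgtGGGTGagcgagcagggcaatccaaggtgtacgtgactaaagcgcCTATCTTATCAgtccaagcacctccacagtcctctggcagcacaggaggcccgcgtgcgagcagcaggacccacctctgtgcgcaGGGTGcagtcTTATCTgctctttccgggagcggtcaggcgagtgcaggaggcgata
Hba-a1, chr11:32283422-32283721, plus strand: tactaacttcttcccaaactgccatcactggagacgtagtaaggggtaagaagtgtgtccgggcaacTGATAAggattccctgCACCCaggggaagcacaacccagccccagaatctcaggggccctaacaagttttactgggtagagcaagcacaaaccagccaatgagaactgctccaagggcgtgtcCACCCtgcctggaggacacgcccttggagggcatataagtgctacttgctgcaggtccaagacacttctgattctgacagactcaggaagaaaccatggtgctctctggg
Hbb-bt, chr7:103813874-103814173, minus strand: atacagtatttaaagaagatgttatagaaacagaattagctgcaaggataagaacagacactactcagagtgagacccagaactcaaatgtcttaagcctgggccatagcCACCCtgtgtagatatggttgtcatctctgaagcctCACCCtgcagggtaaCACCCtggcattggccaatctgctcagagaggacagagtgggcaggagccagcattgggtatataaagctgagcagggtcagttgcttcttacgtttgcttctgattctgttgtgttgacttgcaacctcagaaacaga

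Windows of 8 of the 9 members were searched, 10 windows in all because Alas1 and Alad have 2 starts each. Fech was not searched, because member windows on 1 chromosome were left out. The windows of all genes had no such limit. A GATA word stood in 3 of the 10 member windows, those of Alas2, Cpox and Hba-a1, against 29.8% of 32851 windows of all genes. The Alas2 window held 1 such word, 86 bases before the start, and the Cpox window held 3, of which the pair farthest from the start overlap by 1 base. CACCC stood in 8 of the 10 windows, against 57.5% of all windows. The Hbb-bt window held 3 CACCC words and no GATA word in these letters, and the Alas1 window printed above held 2 CACCC words. The windows of Hba-a1 and its neighbour Hba-a2 shared an unbroken run of 297 of 300 bases, while those of the adult beta genes Hbb-bt and Hbb-bs shared at most 14. These matches describe the letters and say nothing of binding in these livers.

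The 2 synthases both averaged higher in the mutant, in different ways. Alas2 had log2 ratios of 0.37, 0.73, 0.64 and 0.45 in pairs 1 to 4, a mean of 0.55 ± 0.17 (SD, n = 4), or 1.46-fold. All 4 pairs were above 0 and the pairs lay close together: the median SD of 10156 named genes brighter than the median was 0.33. The pairs with the mutant in Cy5 and those with it in Cy3 had nearly equal Alas2 means, 0.55 each. Alas2 had an unadjusted p of 0.027, a 95% interval of 0.10 to 0.99 and an adjusted p of 0.736 in limma with a dye term, and so did not pass. It was the 1 member with an unadjusted p under 0.05, which 6.64% of all probes and 9.26% of named probes had (4.74% higher and 4.52% lower in the mutant).

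Alas1 had log2 ratios of 0.58, -0.22, 0.68 and 2.13 in pairs 1 to 4. Its mean was 0.79 ± 0.98 (SD, n = 4), or 1.73-fold. Pair 4 was far above the others and pair 2 was below 0, so the SD exceeded the mean. The limma interval ran from -0.12 to 1.70 (adjusted p = 0.736). Without pair 4 the fitted value was 0.43, and without pair 3 it was 1.15, since the remaining pair of that dye orientation then counts as much as pairs 1 and 2 together.

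**Figure D1:**
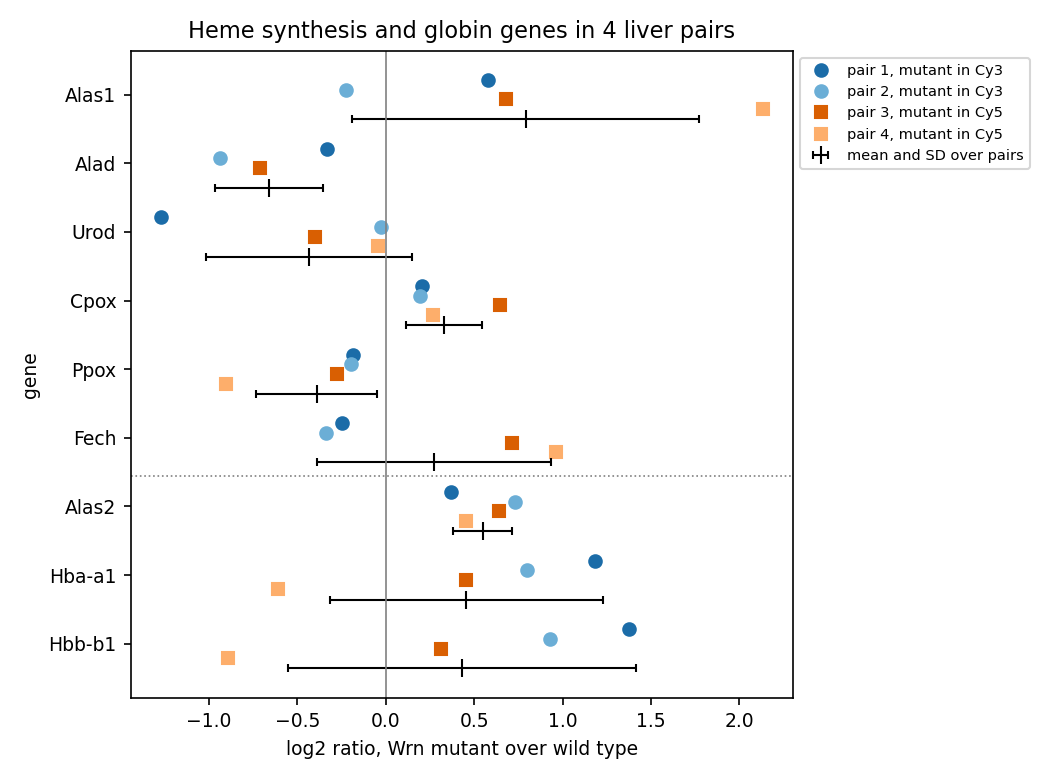
Log2 ratio of mutant over wild type (horizontal axis) of the 9 genes (rows) in each of the 4 pairs; circles are pairs with the mutant in Cy3, squares those with the mutant in Cy5, and the black bar is the mean with its SD over pairs. Alas2 and Cpox lie above 0 in 4 of 4 pairs and Urod and Ppox below 0 in 4 of 4, while the globins run from -0.89 to 1.38.

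The enzymes between the synthase and the last step did not share a direction. Alad, which joins 2 molecules of 5-aminolevulinate into porphobilinogen, had log2 ratios of -0.33, -0.93 and -0.71 in pairs 1 to 3 and no value in pair 4. It was lower in the mutant in each of the 3 measured pairs, on a probe dimmer than most (A of 5.87). The limma fit on 3 values gave -0.67, with an interval of -1.48 to 0.13 (adjusted p = 0.736).

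Urod removes carboxyl groups from uroporphyrinogen in the cytosol, and its human deficiency causes porphyria cutanea tarda. Its log2 ratios were -1.27, -0.03, -0.40 and -0.04 in pairs 1 to 4. All 4 were below 0, but in pairs 2 and 4 they were close to it. The mean was -0.44 ± 0.58 (SD, n = 4), with an interval of -1.19 to 0.31, and the fitted value was -0.13 without pair 1 and -0.75 without pair 2.

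Cpox, the oxidase that makes protoporphyrinogen between the mitochondrial membranes, had log2 ratios of 0.20, 0.20, 0.65 and 0.27. All 4 pairs were above 0, and pair 3 stood above the other 3. The mean was 0.33 ± 0.21 (SD, n = 4), with an interval of -0.11 to 0.77.

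Ppox oxidises protoporphyrinogen to protoporphyrin, and its log2 ratios were -0.19, -0.20, -0.28 and -0.90. It was lower in the mutant in 4 of 4 pairs, with pair 4 well below the others. The mean was -0.39 ± 0.34 (SD, n = 4), the interval -0.89 to 0.11, and the fitted value -0.23 without pair 4. Cpox and Ppox, which act one after the other, thus differed in sign in each pair.

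Fech, the ferrochelatase that inserts iron in the final step, had log2 ratios of -0.25, -0.34, 0.72 and 0.96. Both pairs with the mutant in Cy3 were below 0 and both with it in Cy5 above 0, so the mean of 0.27 ± 0.66 (SD, n = 4) describes neither orientation. The orientation means were 0.84 with the mutant in Cy5 and -0.29 with it in Cy3. The dye coefficient of Fech had an unadjusted p of 0.020 and an adjusted p of 0.741 in limma. That coefficient compares different animals as well as dyes, which cannot be told apart.

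Uros, the synthase that closes the ring and is not among the 9, had log2 ratios of -0.25, -0.01, -0.20 and -0.06. It was slightly lower in 4 of 4 pairs, with a mean of -0.13 ± 0.11 (SD, n = 4). Along the pathway the fitted ratios were positive for Alas1, Alas2, Cpox and Fech and negative for Alad, Uros, Urod and Ppox.

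**Figure D2:**
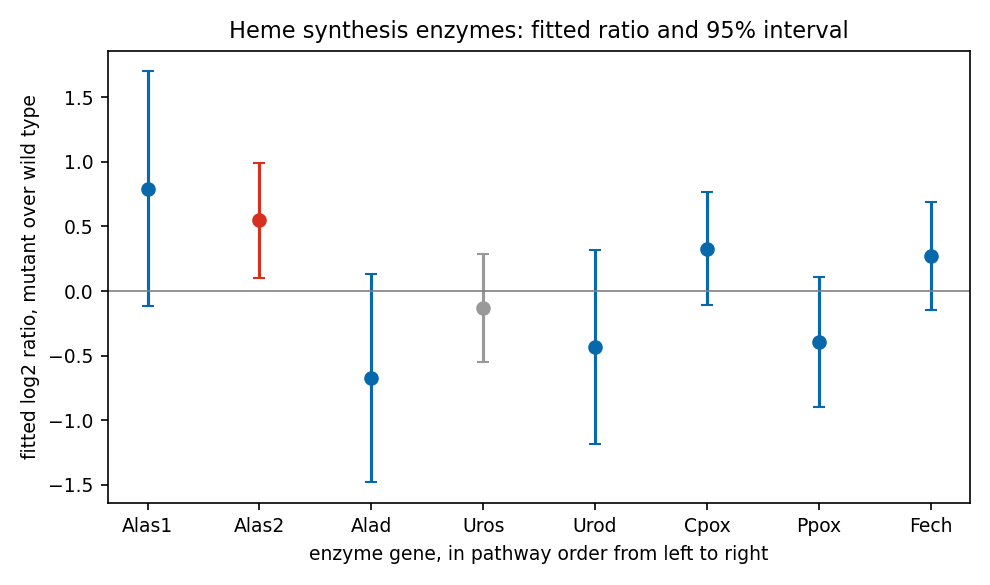
Fitted log2 ratio of mutant over wild type (vertical axis) with its 95% limma interval for the 7 member enzymes and Uros in pathway order (horizontal axis); red is Alas2, blue the other members and grey Uros. Only the interval of Alas2, from 0.10 to 0.99, leaves out 0, and none of these 8 genes passed after adjustment over all probes.

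The globins averaged higher in the mutant with a wide spread. Hba-a1, an adult alpha chain gene, had log2 ratios of 1.18, 0.80, 0.45 and -0.61, with a mean of 0.46 ± 0.77 (SD, n = 4). Hbb-b1, an adult beta chain probe, had 1.38, 0.93, 0.31 and -0.89, with a mean of 0.43 ± 0.99 (SD, n = 4). Each was higher in the mutant in 3 of 4 pairs and lower in pair 4. The 95% intervals ran from -0.23 to 1.14 for Hba-a1 and from -0.32 to 1.18 for Hbb-b1 (adjusted p = 0.744 and 0.762 in limma). Without pair 4 the fitted values were 0.72 and 0.73, and without pair 3 they were 0.19 and 0.13.

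The adult globin probes followed each other from pair to pair. Hba-a2, the second adult alpha gene, had log2 ratios of 0.93, 0.71, 0.51 and -0.70. In pairs 1 to 4 the values of Hba-a1, Hba-a2 and Hbb-b1 lay within 0.45, 0.22, 0.20 and 0.29 of each other, while the mean of Hba-a1 and Hbb-b1 was 1.28, 0.86, 0.38 and -0.75. Whether a probe also reads the transcript of a related globin gene was not tested, so Hba-a1 and Hba-a2 may not be separate measurements. In bulk liver, fewer red cells and less RNA per cell cannot be told apart, and neither can the blood left in the mutant and in the wild-type liver of a pair.

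Alas2 did not move with the globins, although both are red cell transcripts. The difference between Alas2 and the globin mean was -0.91, -0.13, 0.26 and 1.20 log2 units in pairs 1 to 4. In pair 4, where both globins were lower in the mutant, Alas2 was higher at 0.45 and Alas1 was at its highest, 2.13. With 4 pairs these relations are descriptions and were not tested.

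**Figure D3:**
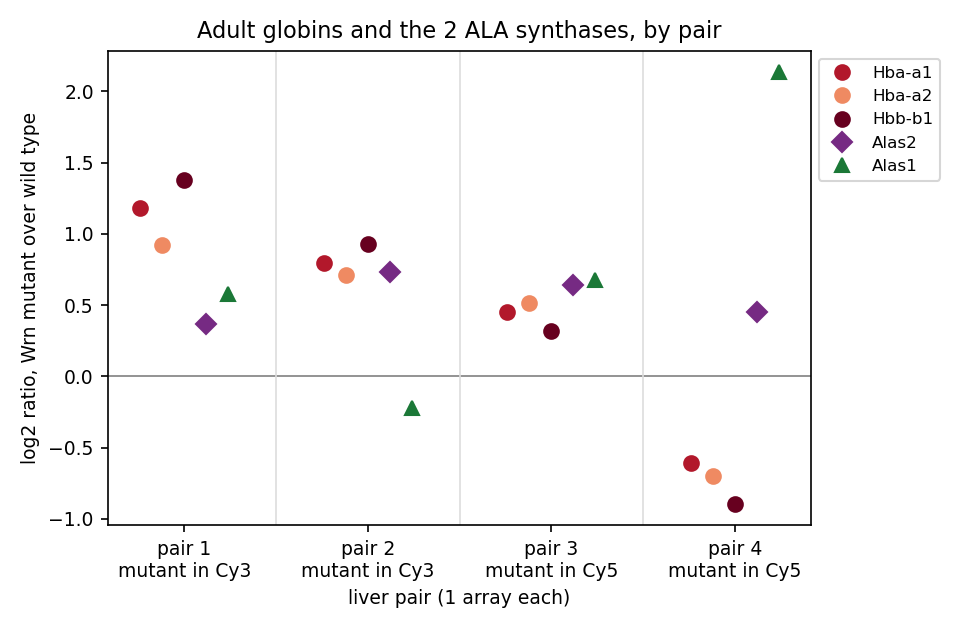
Log2 ratio of mutant over wild type (vertical axis) of 3 adult globin probes (circles), Alas2 (diamonds) and Alas1 (triangles) in each of the 4 pairs (horizontal axis). The globin circles sit together in each pair, above 0 in pairs 1 to 3 and below it in pair 4, while Alas2 stays between 0.37 and 0.73.

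Of the remaining globins, the embryonic genes Hbb-y, Hbb-bh1 and Hba-x were among the dimmest probes, with A between 4.51 and 4.73. Hbb-y had log2 ratios of 0.54, 2.93 and 1.32 in pairs 1, 3 and 4 and no value in pair 2. Hbb-bh1 had -1.28, 0.87, -1.97 and -1.34, and Hba-x had 0.34, 0.32, -0.36 and -0.37. These embryonic chains therefore had no common direction, at an intensity where ratios vary most. The theta globin probe Hbq1 (now Hbq1a) was higher in 4 of 4 pairs with a mean of 0.84 ± 0.80 (SD, n = 4), and its partner F830116E18Rik (now Hbq1b) was at -0.49 ± 1.63. The globins of other tissues had means near 0 over pairs of both signs: Mb, myoglobin of muscle, was at 0.13 ± 0.63 (pairs from -0.47 to 0.73), Ngb, neuroglobin, at -0.07 ± 0.28 and Cygb, cytoglobin, at 0.08 ± 0.29.

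No member passed the test. In limma with a dye term the 9 members had adjusted p from 0.736 to 0.762, and 0% of 40238 probes passed 0.05, with 2673 at an unadjusted p under 0.05. A fit without the dye term called 0 probes and had 2328 at an unadjusted p under 0.05. With a prior that follows probe intensity, 0.206% of 20379 named probes passed and 0 members did, the lowest adjusted p being 0.131 for Alas2. Exact two-sided sign-flip tests gave p = 0.13 for Alas2, Urod, Cpox and Ppox, the smallest that 4 pairs allow, and 0.25 for Alad, the smallest that 3 allow. For Alas1 the exact p was 0.25, for both globins 0.375 and for Fech 0.5.

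Of the 8 members with 4 values, 2 were higher and 2 were lower in 4 of 4 pairs. Among 17686 named genes with 4 values these shares were 10.9% and 10.1%, and among the brighter ones of these 13.4% and 12.7%. The fitted ratio was positive for 6 of the 9 members, against 53.4% of named genes. The pairs of 6 members were separated by dye orientation: Alas1, Cpox and Fech had both pairs with the mutant in Cy5 above both with it in Cy3 (19.6% of named genes with 4 values), and Ppox, Hba-a1 and Hbb-b1 the reverse (19.3%). One or the other held for 38.9% of these genes. Whether arrays of opposite orientation were turned to 1 direction before deposit is not stated. With the pairs holding the mutant in Cy5 turned, the fitted values were 0.53 for Hba-a1, 0.72 for Hbb-b1, 0.00 for Alas2 and -0.61 for Alas1. Turning the pairs with the mutant in Cy3 instead gives the same sizes with opposite signs. Which of these would apply is unknown.

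**Figure D4:**
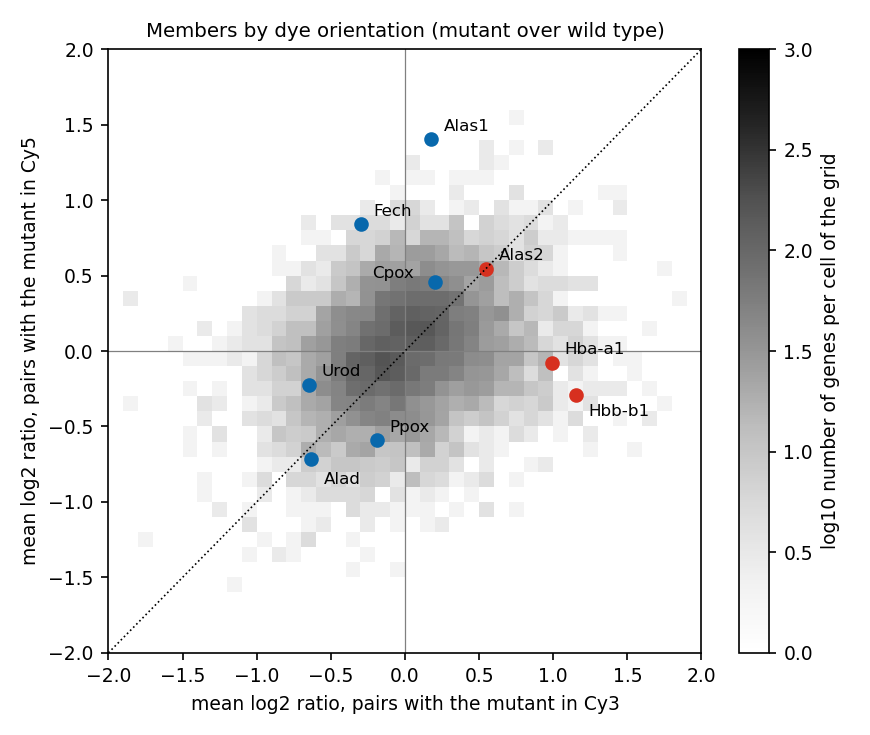
Mean log2 ratio of mutant over wild type in the pairs with the mutant in Cy3 (horizontal axis) and in those with the mutant in Cy5 (vertical axis); red points are red cell members, blue points the other members, grey shading counts the 10156 brighter named genes within 2 log2 units of 0, and the dotted line marks equal values. Alas2 sits on the line at 0.55, the globins lie below it and Fech and Alas1 above it; the Cy5 value of Alad is pair 3 alone.

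Around the pathway, 0 genes of any list passed. The lists of this paragraph and the next were described by counts and medians beside all named genes, whose median fitted log2 ratio was 0.042. Among 12 genes linked to the transport or handling of heme, porphyrins and iron in mitochondria the median was -0.042, with 5 positive and 7 negative. Abcb6, a porphyrin transporter, was higher in 4 of 4 pairs at 0.31 ± 0.16 (SD, n = 4), and Slc25a40, a mitochondrial carrier, was lower in 4 of 4 at -0.49 ± 0.36 on a dim probe. Among 11 genes of heme breakdown, scavenging and export the median was -0.094, and it ran from -0.05 to 0.12 when 1 pair was left out. Blvrb, a biliverdin reductase that is abundant in red cells, had log2 ratios of 0.66, 0.50, 0.49 and 0.42, higher in 4 of 4 pairs with a mean of 0.52 ± 0.10. Hpx, hemopexin, the plasma protein that binds free heme, had -0.46, -0.80, -0.88 and -0.10, a mean of -0.56 ± 0.36. Hmox2, the constitutive heme oxygenase, was at -0.17 ± 0.22 and the heme transporter gene Slc48a1 (4930570C03Rik on the array) at 0.25 ± 0.21. Hmox1, the inducible heme oxygenase, was at 0.16 ± 0.21 and was singled out after its value was seen.

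Among 14 regulators of the synthases the median was 0.16, with 11 positive and 3 negative. Nr1i3, the nuclear receptor CAR, which induces Alas1 together with P450 genes, had log2 ratios of 0.71, 0.66, 0.58 and 0.98. It was the 1 gene of this list that was higher in 4 of 4 pairs, with a mean of 0.73 ± 0.17 (SD, n = 4), and it did not pass (adjusted p = 0.736 in limma). Among 17 liver heme proteins and their electron donors the median was 0.11, with 11 positive and 6 negative. Cyp2a5, a P450 of coumarin hydroxylation, had 0.97, 0.58, 0.02 and 1.80, a mean of 0.84 ± 0.75. Like Alas1 it was highest in pair 4, but the median of this list in pair 4 was only 0.10. Cyp7a1, the rate-limiting enzyme of bile acid synthesis, was at 0.79 ± 0.65 and was lowest in pair 4, at 0.02. Cyb5 (now Cyb5a), cytochrome b5, was at 0.29 ± 0.25 and Cyp27a1, a sterol hydroxylase, at -0.16 ± 0.18.

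Markers of red cells and their precursors did not repeat the globin pattern. Of 29 genes, 18 had a positive and 11 a negative fitted ratio, with a median of 0.27, and 0 passed. Per pair their median was 0.17, 0.29, -0.08 and -0.11, against globin means of 1.28, 0.86, 0.38 and -0.75. Only 9 of the 29 probes were brighter than the median named probe, and the median over these 9 was -0.20. Without pair 2 the median over the 29 was 0.0036. Nfe2, a globin gene activator, was lower in 4 of 4 pairs at -0.79 ± 0.50 (SD, n = 4), and Car2, a carbonic anhydrase, at -0.60 ± 0.21. Tfrc, the transferrin receptor, had -0.65, -0.24, -0.88 and -0.77, a mean of -0.63 ± 0.28. The authors' deposited table gives Tfrc a log2 fold change of -1.01, which is not the mean of the 4 arrays.

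**Figure D5:**
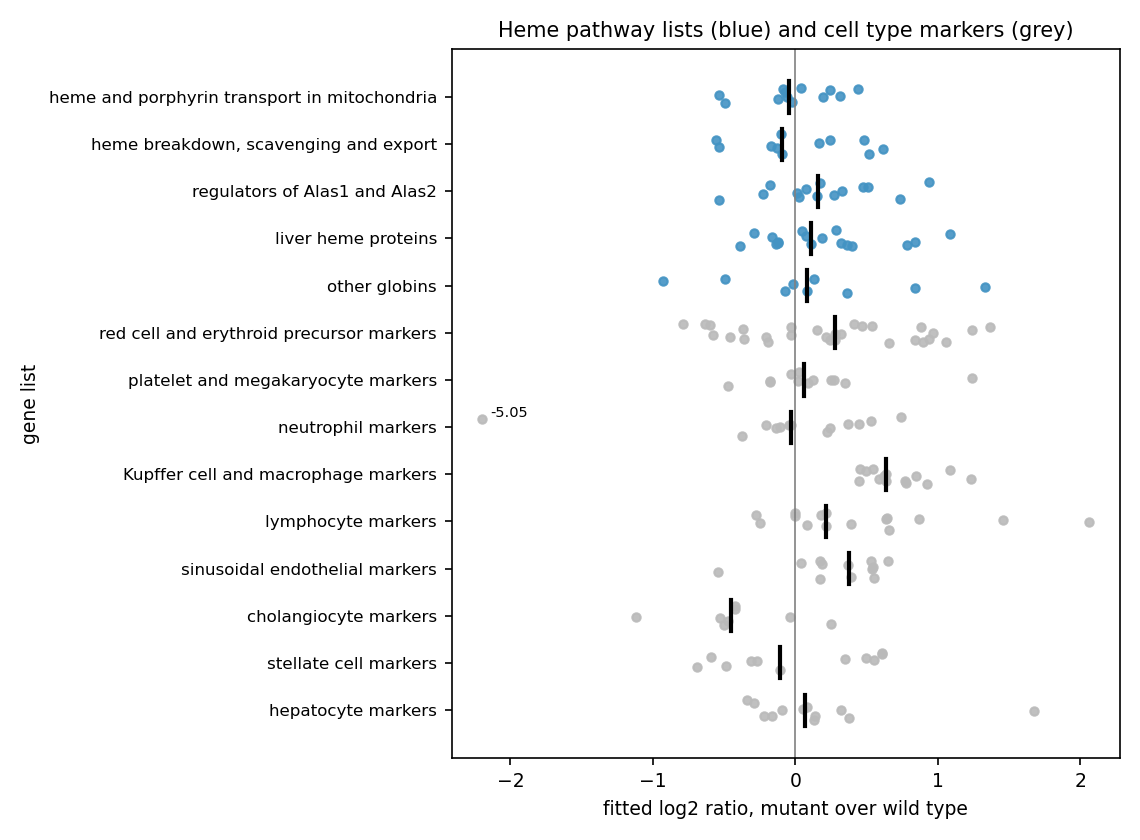
Fitted log2 ratio of mutant over wild type (horizontal axis) of each gene in the lists around heme (blue points) and in the cell type marker lists (grey points), with a black bar at each list's median; random vertical offsets separate the points, and Lcn2 (-5.05) is drawn at the left edge with its value. The heme lists centre between -0.09 and 0.16, macrophage markers at 0.63 and cholangiocyte markers at -0.45.

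Markers of other cells in liver differed from pair to pair beside these values. Macrophage markers had pair medians of 0.73, 1.01, -0.20 and 0.98, lymphocyte markers 0.20, 0.28, 0.31 and 0.16, and hepatocyte markers 0.20, 0.34, -0.14 and 0.07. Platelet markers had -0.15, -0.01, 0.06 and 0.34, and neutrophil markers -0.16, 0.30, -0.11 and 0.00. None of these 5 lists was, like the globins, highest in pair 1 and below 0 in pair 4 alone. Sinusoidal endothelial markers had a median fitted value of 0.38, stellate cell markers -0.11 and cholangiocyte markers -0.45. Without pair 4 the endothelial median was 0.21, and the stellate median was 0.10 without pair 1 or without pair 4 and -0.28 without pair 2. Under the opposite reading of the dye swap, with the pairs holding the mutant in Cy5 turned, the endothelial median was -0.03 and the cholangiocyte median -0.10. Both signs change if the pairs with the mutant in Cy3 are turned instead. The part of these cell types in the values of the heme and globin genes was not tested.

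Genes with the most similar 4 values were found among 17685 others by the root mean square difference over the pairs, as a description on 4 points. For Alas2 they were Uroc1 (0.053), Zfp451 (0.063) and Cryl1 (0.068). For Alas1 they were Tmem17 (0.11), Nr2c2 (0.15) and Pcdh9 (0.25). For Hbb-b1 they were Adcyap1r1 (0.13), 4921523L03Rik (0.18) and EG622116 (0.19), with Hba-a1 next at 0.20 and Hba-a2 at rank 32 with 0.29.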

How the data were processed

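For every array the authors deposited log2 ratios of its 2 channels. Their gene table adds A (the average log2 intensity), a log2 fold change and its p-value, per the file headers. limma is named, without a version, in the submitters' processing notes. How background, normalization and probe choice were handled was not given in the sources used here, nor was the numerator. The fold changes and p-values of the authors' table chose and tested no member.

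Each of 40238 probes with at least 3 of 4 values was fitted with limma 3.58.1 in R 4.3.3 (lmFit and eBayes, genotype plus dye orientation), with Benjamini-Hochberg adjustment at 0.05. Pairs are inside arrays, so the array is the replicate. Mean ± SD is over pairs. The labels call the pairs biological replicates. The fit was tested on simulated data. Lists were matched by accession, then symbol, to names of GRCm38.p6, and 17284 accessions had a name there.

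The members, lists and tests were chosen with earlier results of these data known. Named were all members, every gene of the small enzyme and globin lists, up to 4 genes per list of 1 sign in 4 pairs with the smallest p, and the 3 nearest patterns of Alas1, Alas2 and Hbb-b1. Of the marker genes outside the red cell list only Lcn2 and Ltf are given singly, and some genes that the rule selects are not reported here.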

Additional observations from a re-analysis of the deposited data

Results flagged for a closer look

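Of 72 genes and list medians examined, 4 had 1 pair far from the other 3, where chance gives about 3.6. Cpox was at 0.65 in pair 3, against 0.20, 0.20 and 0.27 in pairs 1, 2 and 4. Ppox was at -0.90 in pair 4, against -0.28 to -0.19 in the others. Ngb was at 0.35 in pair 2, against -0.23 to -0.20, and Ltf, the neutrophil granule protein lactoferrin, was at -0.90 in pair 3, against -0.23 to -0.18.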

How the results depend on the processing

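Every fit used the pairing, because each value is the ratio of the 2 channels of 1 array, and no further pairing was possible. Over all alternatives 113 member values were computed, 108 with the same direction and still not passing, and 5 reversed. Array weights, robust eBayes, the intensity prior and the limits to named or brighter probes left each fitted ratio unchanged. Dropping the dye term changed that of Alad alone. These settings therefore do not test direction. All 5 reversals came from reading the dye swap the opposite way, with the pairs holding the mutant in Cy5 turned. These were Alas1 -0.61, Alad 0.039, Cpox -0.13, Ppox 0.20 and Fech -0.57. That reading also took the median of the 9 members to 0.0018, against 0.33. With the pairs holding the mutant in Cy3 turned instead, every sign of that reading changes. Those 5 would then keep their direction, and Alas2, Urod, Hba-a1 and Hbb-b1 would reverse. The count of passing probes was 42 with a prior following intensity (named probes, 0 members, 1 gene of the other lists, Lcn2), 1 among brighter named probes (Saa1, adjusted p = 0.0322, named after it was seen), and 2673 at an unadjusted p under 0.05. It stayed at 0 without 1 pair, with centring, scaling, array weights, robust eBayes, named probes, no dye term or a threshold of 0.1. Without 1 pair the fitted values ran from 0.46 to 0.64 for Alas2, 0.43 to 1.15 for Alas1, 0.19 to 0.72 for Hba-a1 and 0.13 to 0.73 for Hbb-b1. Of 144 list medians, 12 moved by at least 1 SD of the pair medians. Alad had 3 values and could be refitted only without pair 4, where it has none. Signal over background was not analysed here.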
